A study of Homo sapiens with 4 samples.

Results

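The 10 genes described here encode heterogeneous nuclear ribonucleoproteins (hnRNPs): HNRNPA1, HNRNPA2B1, HNRNPC, HNRNPD, HNRNPF, HNRNPH1, HNRNPK, HNRNPL, HNRNPM and HNRNPU. They were chosen by symbol, as the rows of the count tables that map to these names on the primary chromosomes. Each symbol had 1 such row, so 10 of the 63677 genes in the tables are members, and all 10 passed the filter on low counts. RNA-seq read counts on these genes were compared between IMR90 fibroblasts with and without knockdown of HMGB1. IMR90 is a line of normal human lung fibroblasts. Control cells received a non-targeting control (NTC) siRNA and knockdown cells received siHMGB1, both with RNAiMAX for 72 h. The methods of the study name a pair of different siRNAs for IMR90, and the labels do not say which one each library received. Each group had 2 libraries of poly(A)-selected RNA. Replicate 1 of either group was grown from isolate I90-10, and replicate 2 from I90-79, so each knockdown library has a control library of the same isolate. Both isolates belong to a single cell line, and p-values measure the spread between these cultures only. In bulk RNA, fewer cells with a transcript and less of it per cell cannot be told apart.

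The hnRNPs coat nascent transcripts in the nucleus. Most of them carry RNA-binding domains of the RRM, quasi-RRM or KH type, often beside glycine-rich stretches. As a family they steer splice site choice, polyadenylation, export, translation and decay of mRNA. In fibroblasts, as in most cells, they are among the abundant nuclear proteins, and several shuttle to the cytoplasm. HNRNPD, also known as AUF1, is best known for binding AU-rich elements in 3′ UTRs of short-lived mRNAs, while HNRNPF and HNRNPH1 bind runs of guanines near splice sites.

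Between 29861687 and 35317010 reads were counted on genes per library, and a member had at least 1699 counts in every library. The targeted gene HMGB1 had 178 and 247 CPM (read counts scaled to the total counted in the library) in control replicates 1 and 2, and 15.4 and 18.9 CPM in the knockdown replicates. Its log2 fold change was -3.59 (SE 0.19, adjusted p = 0.0075 by the quasi-likelihood test of edgeR with Benjamini-Hochberg adjustment), with adjusted p up to 0.0487 when 1 knockdown library was left out. All 9 fibroblast markers looked up were detected. Their summed level was 44513 and 24184 CPM in control and 37017 and 24170 CPM in knockdown libraries, a sum carried by collagens and FN1, in which the isolates differed more than the groups. Without a term for the isolate, 0 of the 9 were called. With a replicate block for the isolate, 3 of the 9 were called lower (THY1 at -0.99, FN1 at -0.74 and PDGFRB at -0.68 on the log2 scale) and LUM was called higher, at 0.83. In that fit 7.84% of all genes tested were called lower and 6.68% higher. The part of these marker shifts in the results was not tested. The 3 epithelial markers summed to between 0.54 and 0.70 CPM, the 2 blood markers to between 0 and 0.17 CPM, and of the 2 endothelial markers found CDH5 was at 0. PECAM1, also looked up as an endothelial marker, matched no gene on the primary chromosomes. VWF had 1.34 and 0.963 CPM in control against 4.02 and 2.61 CPM in knockdown libraries, a log2 fold change of 1.57 (adjusted p = 0.068 in edgeR, 0.0036 with the block).

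Upon HMGB1 knockdown, HNRNPD was 3.37-fold and HNRNPF 2.32-fold lower, in both isolates, whereas the point estimates of the other 8 members lay between -0.35 and 0.19 on the log2 scale. A gene was called when its adjusted p was below 0.01 and its absolute log2 fold change above 0.6. By this rule 0 of the 10 members were called, against 0.201% of the 15398 genes tested in either direction, 0.136% called lower and 0.0649% called higher. HNRNPD missed it with an adjusted p of 0.0104 and HNRNPF with 0.0129 (edgeR, quasi-likelihood test). At an adjusted p below 0.05 with any fold change, 2 of the 10 were lower and 0 higher, where 8.44% of all genes passed (4.5% lower, 3.94% higher). The same 2 members had an unadjusted p below 0.05, against 28.3% of all genes (14.7% lower, 13.6% higher). DESeq2 called both lower, where it called 5.31% of all genes lower. When the isolate entered the fit as a replicate block, HNRNPD and HNRNPF were called lower and 0 members higher. In that fit 7.84% of all genes were called lower and 14.5% in either direction. The log2 fold change was above 0 for 4 members and below 0 for 6, as it was for 49.6% and 50.4% of all genes, with a median of -0.018 beside -0.0054 over all genes tested. In CPM scaled by edgeR's TMM factors, the control and knockdown libraries did not overlap for 4 members that were lower and 1 that was higher, where 59.9% of all genes had no overlap (30.2% lower, 29.8% higher). The isolates gave the same sign for 5 members that were lower and 3 that were higher, and so they did for 78.3% of all genes (39.4% lower, 38.9% higher). These shares do not set the 10 genes as a group apart from the background, and the description below turns on the 2 that moved most.

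**Figure D1:**
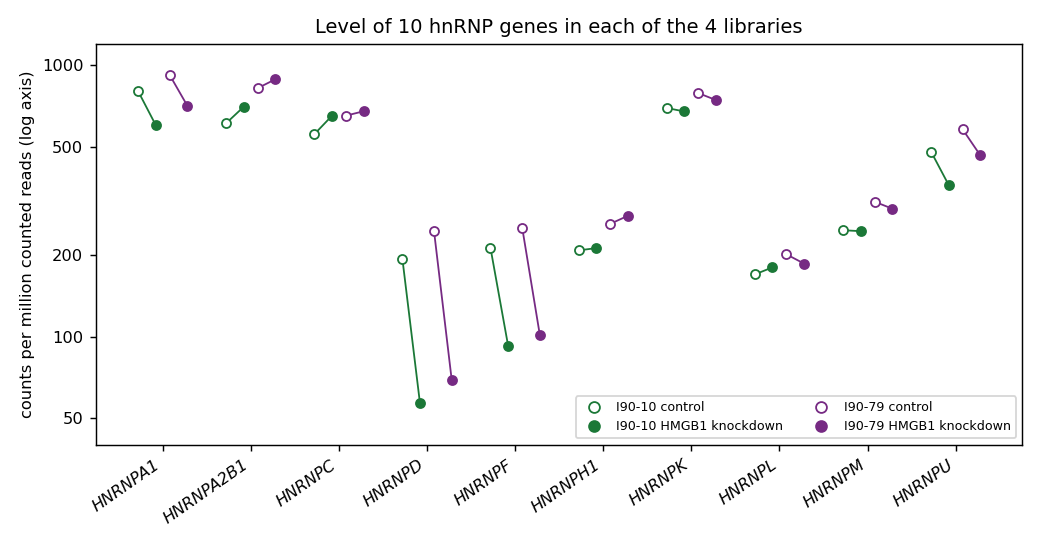
Level of each of the 10 hnRNP genes in CPM (counts scaled to the library total, log axis) in the 4 libraries; each line joins the control (open point) and the HMGB1 knockdown library (filled point) of one isolate, I90-10 in green and I90-79 in purple. HNRNPD drops from 194 and 244 CPM to 56.9 and 69.5 CPM and HNRNPF from 213 and 253 CPM to 92.9 and 102 CPM. The lines of HNRNPA1 and HNRNPU fall less steeply, those of HNRNPA2B1 and HNRNPC rise, and those of HNRNPH1, HNRNPK, HNRNPL and HNRNPM are nearly flat.

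HNRNPD (ENSG00000138668) lies on chromosome 4 of GRCh37 (hg19) at chr4:83273651-83295656, minus strand. Its level was 194 CPM in control replicate 1 and 244 CPM in control replicate 2, against 56.9 CPM in knockdown replicate 1 and 69.5 CPM in knockdown replicate 2. Both knockdown libraries lay far below both control libraries, and the groups did not overlap. The means were 219 ± 35.4 CPM (SD, n = 2) and 63.2 ± 8.88 CPM (SD, n = 2). The log2 fold change was -1.75 (SE 0.15, 95% interval -2.14 to -1.37, adjusted p = 0.0104 with edgeR's quasi-likelihood test). The isolates gave almost the same value, -1.75 in I90-10 and -1.76 in I90-79. A replicate block for the isolate gave -1.75 again (SE 0.094, adjusted p = 3.4e-05), and HNRNPD then passed both thresholds. Only 240 of the 15398 genes tested (1.56%) had a lower log2 fold change. The log2 fold change ran from -1.88 to -1.75 and the adjusted p from 2.1e-36 (DESeq2 with the block) to 0.0106 over the settings of edgeR and DESeq2 that keep all 4 libraries. Scaled by total counts alone in edgeR the adjusted p was 0.00976 and HNRNPD was called, and with RLE or upper-quartile factors it was not. With 1 library left out, HNRNPD was called without control replicate 1 and without control replicate 2. It was not called without either knockdown library, where edgeR called 0 of all genes and the adjusted p of HNRNPD was 0.0633 and 0.0495.

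HNRNPF (ENSG00000169813) lies at chr10:43881065-43904614 of GRCh37, minus strand. It had 213 and 253 CPM in control replicates 1 and 2, and 92.9 and 102 CPM in knockdown replicates 1 and 2. Again every knockdown library was below every control library, here by more than a factor of 2. The mean was 233 ± 28.2 CPM (SD, n = 2) without and 97.3 ± 6.28 CPM (SD, n = 2) with the knockdown. Its log2 fold change was -1.22 (SE 0.12, 95% interval -1.52 to -0.91, adjusted p = 0.0129 with edgeR's quasi-likelihood test), with -1.17 in I90-10 and -1.26 in I90-79. The replicate block left the size at -1.22 and lowered the adjusted p to 1.0e-04, so that HNRNPF was called. Of all genes tested, 688 (4.47%) had a lower value. Over the settings that keep all 4 libraries the log2 fold change stayed between -1.28 and -1.21 and the adjusted p of edgeR or DESeq2 between 4.1e-18 and 0.0131. Without 1 knockdown library it was -1.18 or -1.25, and the gene was not called (adjusted p = 0.072 and 0.063).

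**Figure D2:**
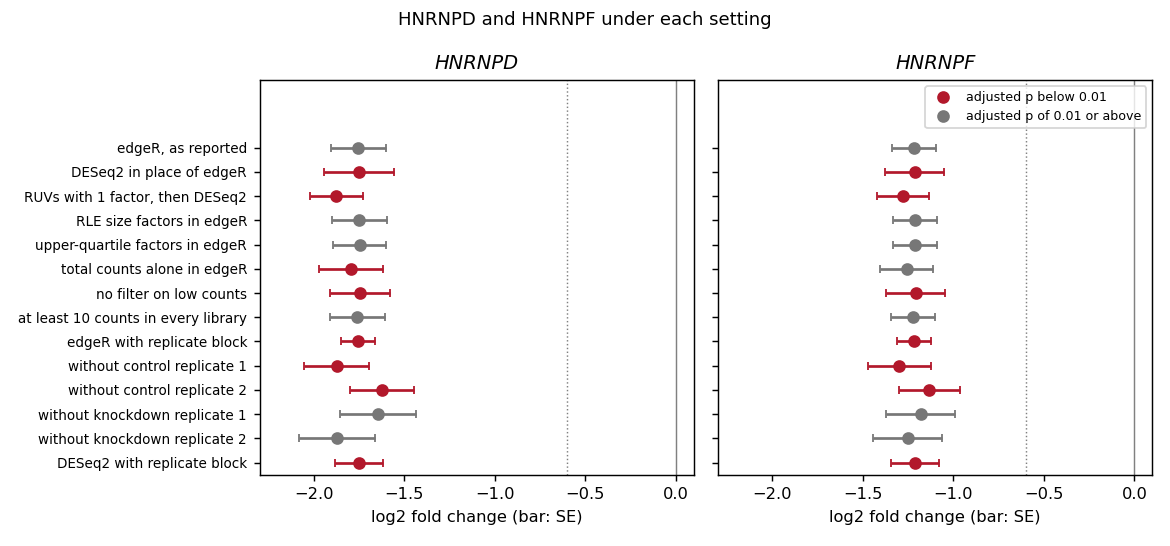
Log2 fold change of HNRNPD (left) and HNRNPF (right), knockdown over control, under each way of fitting the counts; points are estimates, bars are SE, red marks an adjusted p below 0.01 and the dotted line is the threshold of -0.6. Estimates keep to -1.88 to -1.63 for HNRNPD and to -1.30 to -1.13 for HNRNPF, and what differs between settings is the adjusted p.

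Windows of the 3′ UTRs are shown because the word GCAGTT, found in an earlier search of these same data, went with lower values across all genes, and HNRNPD and HNRNPF each hold 1 copy. The word was looked for in the sense of the mRNA in the 3′ UTR of the canonical transcript (GENCODE release 44 lifted to GRCh37, UTRs of at least 100 bases), and its copies cannot overlap. Capitals mark the word, with up to 12 bases on either side, 5′ to 3′ in the sense of the mRNA. The window of HNRNPD is chr4:83275226-83275255, minus strand, with the word 95 bases into a UTR of 1687 bases, and that of HNRNPF is chr10:43882005-43882034, minus strand, 63 bases into 1019. Those of HNRNPC (chr14:21678899-21678928, minus strand), HNRNPH1 (chr5:179041537-179041566, minus strand), HNRNPA2B1 (chr7:26229635-26229664, minus strand) and HNRNPU (chr1:245017559-245017588, minus strand) belong to members with 1 copy that did not pass both thresholds in any fit. HNRNPH2 (chrX:100668728-100668757, plus strand), a relative of HNRNPH1, is given for comparison.
HNRNPD: cacctgctaataGCAGTTcaaactaaattt
HNRNPF: aagcaattaagaGCAGTTataatagaggaa
HNRNPC: gtgctgtgtgggGCAGTTcaacacaaatgt
HNRNPH1: atttaggtaaaaGCAGTTgaattatgttaa
HNRNPA2B1: aaatttttaaaaGCAGTTtcacaaagctat
HNRNPU: acatttttaattGCAGTTtaaaagtgaatc
HNRNPH2: atttaggttaatGCAGTTtcacttatgtta

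Of the members, HNRNPA1 holds 3 copies of the word, HNRNPK and HNRNPL hold 0, and the other 7 hold 1 copy each. At least 1 copy was present in 36.2% of the 12359 tested genes with such a UTR, against 8 of the 10 members. The median log2 fold change over those genes was 0.07 with 0 copies, -0.10 with 1, -0.22 with 2 and -0.32 with 3 or more. The median length of the UTR grew over the same classes, from 886 to 2197, 3509 and 5443.5 bases, so the number of copies and the length moved together. With the replicate block, 4.09% of the genes without the word and 13.9% of those with 1 copy were called lower, and so were 2 of the 7 members with 1 copy. HNRNPA1, the only member with more than 1 copy, was not among them. The windows of HNRNPD and HNRNPH1 contain the same 6 letters, yet the log2 fold change was -1.75 for one and 0.11 for the other. A match is a description of the letters and not of a site in use. The word came from the fold changes of these libraries, so its presence lends nothing independent to any value here, and its part in the result was not tested.

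**Figure D3:**
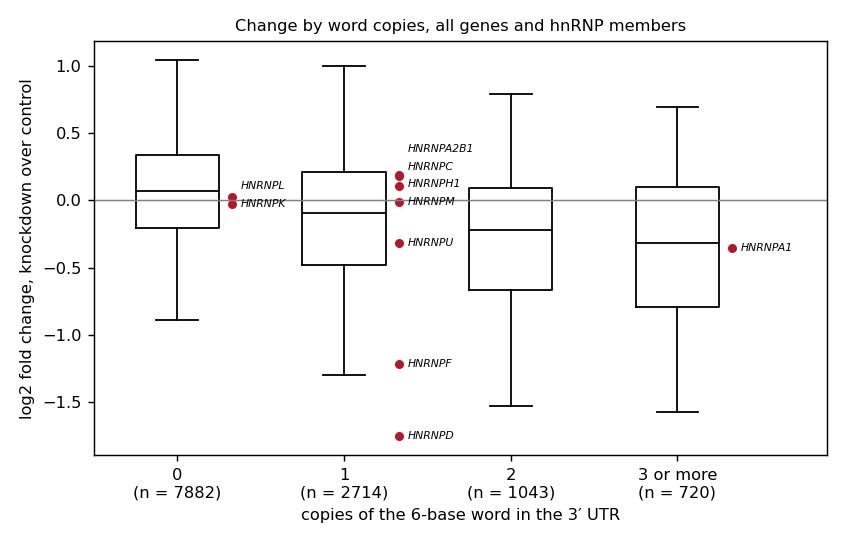
Log2 fold change of all 12359 genes with a 3′ UTR of at least 100 bases, by the number of copies of the 6-base word (box, middle 50%; line, median; whiskers, 5th to 95th percentile), with the hnRNP members as red points. The medians step down from 0.07 to -0.32, and HNRNPD (-1.75) and HNRNPF (-1.22) lie at the lower end of the class with 1 copy.

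The A/B proteins HNRNPA1 and HNRNPA2B1 have a pair of RRMs and a glycine-rich tail, antagonise SR proteins at splice sites and shuttle between nucleus and cytoplasm. HNRNPA1 (chr12:54673977-54680872, plus strand) had 805 and 921 CPM in the control against 604 and 710.1 CPM in the knockdown libraries. Every knockdown library was lower than every control library, in contrast to HNRNPA2B1. The log2 fold change of HNRNPA1 was -0.35 (SE 0.14, 95% interval -0.72 to 0.01, adjusted p = 0.187 in edgeR's quasi-likelihood test), and -0.36 with the replicate block (adjusted p = 0.023), with -0.39 in I90-10 and -0.32 in I90-79. Over the settings that keep all 4 libraries its adjusted p (edgeR or DESeq2) ran from 0.0106 to 0.195. HNRNPA2B1 had 612 and 826 CPM in the control against 705 and 889.8 CPM in the knockdown libraries. Its groups overlapped, since the isolates differed more than the conditions, and its log2 fold change was 0.19 (95% interval -0.28 to 0.67, adjusted p = 0.549 in edgeR). Within each isolate the knockdown library was higher, by 0.23 in I90-10 and 0.16 in I90-79, and 38.9% of all genes were higher in both isolates. The replicate block in edgeR gave HNRNPA2B1 0.19 again (95% interval -0.024 to 0.41, adjusted p = 0.154). The difference between these 2 members was not tested.

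HNRNPU, also called scaffold attachment factor A, binds both RNA and DNA and is known for a role in chromosome architecture. It had 482 and 581 CPM in the control against 363 and 466 CPM in the knockdown libraries. The groups were apart by a narrow margin, knockdown replicate 2 lying just under control replicate 1. The log2 fold change was -0.32 (SE 0.16, 95% interval -0.73 to 0.10, adjusted p = 0.268 in edgeR), with the replicate block the adjusted p was 0.035, and over the settings of edgeR and DESeq2 that keep all 4 libraries it ran from 0.0101 to 0.278. HNRNPA1 and HNRNPU are therefore the members that joined HNRNPD and HNRNPF at an adjusted p below 0.05 with the block, 4 of 10 in all, where 16.3% of all genes tested were lower and 15.9% higher, 32.3% in all. Their changes were below the fold threshold of 0.6 in every setting.

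HNRNPC forms tetramers that bind uridine tracts and keep pre-mRNA in the nucleus. It had 557 and 653 CPM in the control against 652 and 678 CPM in the knockdown libraries. Scaled by TMM factors, both knockdown libraries (674 and 675) were above both controls (567 and 626), the only member of which this was so. Its log2 fold change was 0.18 (95% interval -0.16 to 0.52, adjusted p = 0.435). The remaining 4 members were close to 0. HNRNPK, a KH-domain protein that binds poly(C) stretches, had 697 and 791 CPM in the control against 677 and 745 CPM in the knockdown libraries. HNRNPL, which binds CA repeats, had 169.7 and 201 CPM against 180.2 and 186 CPM. HNRNPM, a splicing regulator with a preference for GU-rich sequence, had 247 and 315 CPM against 245 and 297 CPM. In each of these 3 genes the groups overlapped. The log2 fold changes were -0.025 for HNRNPK (95% interval -0.37 to 0.31), 0.023 for HNRNPL (-0.28 to 0.32) and -0.011 for HNRNPM (-0.40 to 0.38). That of HNRNPL was below 0 when libraries were scaled by total counts alone. HNRNPH1, the closest relative of HNRNPF among the members, had 208 and 261 CPM against 212 and 279 CPM and a log2 fold change of 0.11 (95% interval -0.32 to 0.54), which was -0.043 with RUVs, the correction for unwanted variation that the authors applied before DESeq2. None of these 4 intervals reaches the estimate of HNRNPF.

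**Figure D4:**
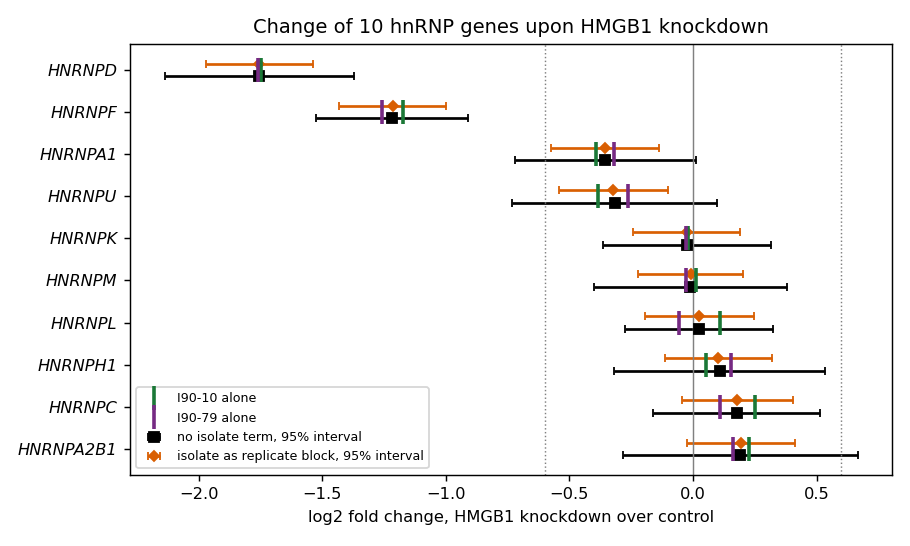
Log2 fold change of the 10 hnRNP genes, knockdown over control, from edgeR without an isolate term (black squares) and with a replicate block for the isolate (orange diamonds), bars giving 95% intervals; ticks show I90-10 (green) and I90-79 (purple) alone and dotted lines the thresholds of -0.6 and 0.6. The intervals of HNRNPD and HNRNPF lie wholly below -0.6, those of the other 8 genes without the isolate term cross 0.

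Per length, in RPKM (CPM divided by the exon length of the gene in kilobases), HNRNPA1 was the most abundant member in control cells with 169 ± 16.1 (SD, n = 2), followed without overlap by HNRNPK with 144 ± 12.8 (SD, n = 2). Below them came HNRNPA2B1 (95.3), HNRNPC (82.8), HNRNPF (71.6) and HNRNPU (62.6), a run in which the libraries of neighbours overlapped. HNRNPM had 50.1, and HNRNPD (31.4), HNRNPL (27.2) and HNRNPH1 (24.7) formed a last such run. In the knockdown libraries HNRNPK was first and HNRNPA1 second. HNRNPF went from rank 5 to rank 7 with 29.9 RPKM, and HNRNPD from rank 8 to the last rank with 9.05 RPKM. HNRNPD made up 4.64% and 4.84% of the counts on the 10 members in the control libraries and at most 1.57% in those of the knockdown. The 10 genes together took 0.419% and 0.505% of all counted reads in the control and 0.379% and 0.442% in the knockdown libraries. Without HNRNPD and HNRNPF these shares were 0.378% and 0.455% against 0.364% and 0.425%, and the groups overlapped in both sums. Within each isolate both sums were lower in the knockdown library, a difference that was not tested.

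The members also differed between the isolates. By total counts, all 10 members were higher in I90-79 than in I90-10 in both groups, as were 44.1% of all genes tested. So were 17 of the 20 other hnRNP genes described below. With TMM factors 9 of 10 members and 13 of those 20 genes were, against 33.5% of all genes. The median difference over the members was 0.26 on the log2 scale in the control and 0.25 in the knockdown libraries by total counts, and 0.17 and 0.20 with TMM factors. Over the 20 other hnRNP genes the medians were 0.27 and 0.22 by total counts, and 0.18 and 0.16 with TMM factors. Over all genes they were 0.086 and 0.057 by total counts, and 0.0004 and 0.0022 with TMM factors. The pattern is thus not particular to the 10 members. The medians of the members are larger than the log2 fold changes of HNRNPH1, HNRNPK, HNRNPL and HNRNPM upon knockdown. The difference between isolates was not tested, with 1 library per isolate and group.

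The wider family was described with a list of 20 other hnRNP genes. Of these, 0 were called in edgeR without the isolate term, while 4 higher and 5 lower genes had an unadjusted p below 0.05, beside 13.6% and 14.7% of all genes. DESeq2 called 2 higher and 5 lower among the 48 genes tested of this list and the 2 lists that follow, and 725 higher and 817 lower among all 15398 genes. At an adjusted p below 0.05, 2 were higher and 3 lower, where 3.94% and 4.5% of all genes were. With the replicate block those same 5 genes passed both thresholds, beside 6.68% of all genes called higher and 7.84% called lower. At an adjusted p below 0.05 with the block, 4 of the 20 were higher and 7 lower, beside 15.9% and 16.3% of all genes. HNRNPH2, on chromosome X and encoding a protein very similar to HNRNPH1, had 117 and 127 CPM in the control against 59.1 and 74.1 CPM in the knockdown libraries, a log2 fold change of -0.84 (adjusted p = 0.029). HNRNPA3, an A/B protein, had 260.2 and 317 CPM against 131 and 169 CPM, a log2 fold change of -0.91 (adjusted p = 0.036). HNRNPUL1, a relative of HNRNPU, had 264 and 298 CPM against 174 and 167 CPM, a log2 fold change of -0.68 (adjusted p = 0.036). In all 3 the knockdown libraries lay below the control libraries. The pyrimidine tract-binding proteins PTBP2 and PTBP3, which repress exons next to such tracts, were higher. PTBP2 went from 11.6 and 14.7 CPM to 21.0 and 24.2 CPM (log2 fold change 0.83, adjusted p = 0.045) and PTBP3 from 45.6 and 49.9 CPM to 68.9 and 91.8 CPM (0.79, adjusted p = 0.043). PTBP1, named after its values were seen, had a log2 fold change of -0.40 (adjusted p = 0.119 in edgeR, 0.017 with the block). Over the list 9 genes had a log2 fold change above 0 and 11 below, with a median of -0.0079.

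Close relatives within the family did not move alike in their estimates. In the F/H group the log2 fold change was -1.22 for HNRNPF, -0.84 for HNRNPH2, 0.11 for HNRNPH1 and 0.44 for HNRNPH3 (adjusted p = 0.125). HNRNPH3 and HNRNPDL are named as relatives of members, after their values were seen. Beside HNRNPD at -1.75, its paralog HNRNPDL, close to it on chromosome 4, had 259 and 314 CPM in the control against 238 and 298 CPM in the knockdown libraries and a log2 fold change of -0.058. Beside HNRNPA3 at -0.91, HNRNPA1 had -0.35 and HNRNPA2B1 0.19. Differences between relatives were not tested.

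**Figure D5:**
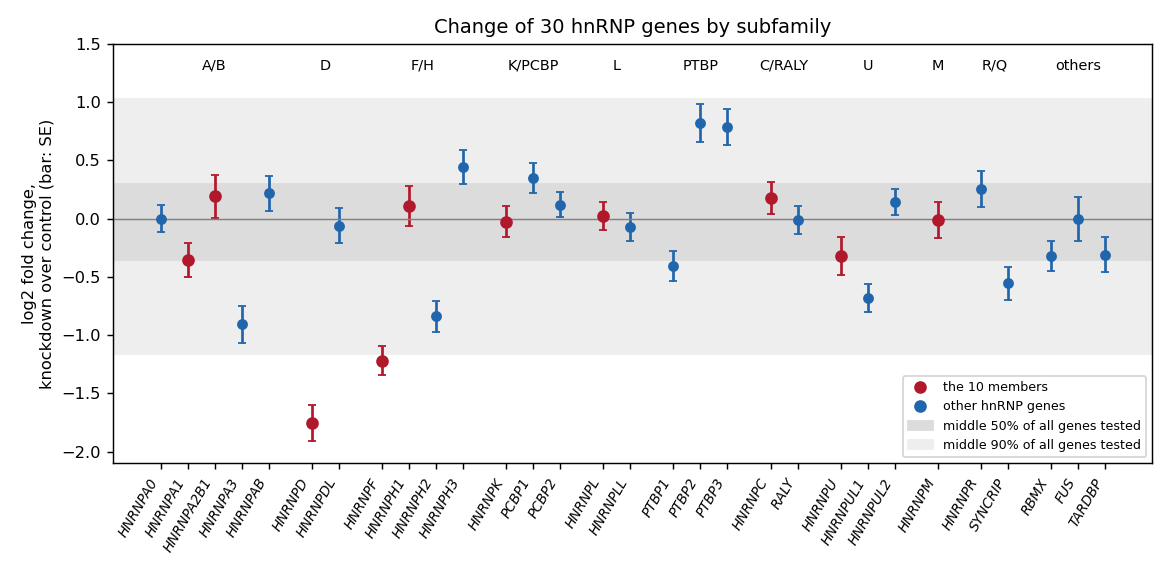
Log2 fold change, knockdown over control, of 30 hnRNP genes grouped by subfamily, the 10 members in red and the 20 others in blue; bars are SE and grey bands hold the middle 50% (-0.36 to 0.30) and the middle 90% (-1.16 to 1.02) of all genes tested. HNRNPD and HNRNPF are the genes of the plot that lie below the wider band.

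Factors that work with hnRNPs were taken from a list of 14 genes, among them import receptors, methyltransferases and other RNA-binding proteins. None was called in edgeR without the isolate term, where 0.201% of all genes were. At an adjusted p below 0.05, 1 was lower and 1 higher, beside 4.5% and 3.94% of all genes. SFPQ, a paraspeckle and splicing protein, had 326 and 404 CPM in the control against 205 and 231 CPM in the knockdown libraries, a log2 fold change of -0.70 (adjusted p = 0.045 in edgeR). It was the only gene of the 14 called with the replicate block, where 7.84% of all genes were called lower and 6.68% higher. TNPO2, an import receptor of hnRNP proteins, had 118 and 125 CPM against 171 and 168 CPM, a log2 fold change of 0.52 (adjusted p = 0.049). At an unadjusted p below 0.05, 4 were higher and 6 lower, beside 13.6% and 14.7% of all genes.

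Since HNRNPD binds AU-rich elements, a list of 15 mRNAs known for such elements was looked at, 14 of which were tested. TNF had too few counts. In edgeR without the isolate term 0 were called, where 0.201% of all genes were. At an adjusted p below 0.05 in that fit, 0 were higher and 1 was lower, beside 3.94% and 4.5% of all genes. The lower gene was GADD45A, a growth arrest gene, which went from 60.5 and 48.9 CPM to 24.0 and 29.0 CPM (log2 fold change -1.01, adjusted p = 0.036 in edgeR). Over the 14 genes, GADD45A included, 11 had a log2 fold change above 0 and 3 below, as had 49.6% and 50.4% of all genes. The median over the 14 was 0.40, beside -0.0054 over all genes tested. At an unadjusted p below 0.05, 3 were higher and 1, GADD45A, was lower (13.6% and 14.7% of all genes). The part of HNRNPD in these values was not tested. MYC had 62.0 and 91.9 CPM in the control against 103 and 109.8 CPM in the knockdown libraries, a log2 fold change of 0.51 (adjusted p = 0.141). IER3, an immediate early gene, had 136 and 362 CPM against 537 and 891 CPM, a log2 fold change of 1.57 (adjusted p = 0.107). Together with IL8 and PTGS2, which were named after their values were seen, IER3 was called higher with the replicate block, and GADD45A was called lower. In that fit 6.68% of all genes were called higher and 7.84% lower. IL8, which encodes the chemokine also known as CXCL8, had 170.5 and 1212 CPM in the control against 891 and 2310 CPM in the knockdown libraries. Here the isolates differed so much that the groups overlapped, and within each isolate the knockdown library was higher. IL6, also named after its values were seen, went the other way, with a log2 fold change of -1.14 (adjusted p = 0.235 in edgeR). It was -0.18 in I90-10 and -1.62 in I90-79. With the replicate block in edgeR it was -0.93 (adjusted p = 0.038), and IL6 was not called.

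Some members share sequence with other genes, which bears on how far their counts are their own. Of the 50-base pieces of HNRNPA1 transcripts 12.3% occur in transcripts of 59 other genes, and the share was 11.8% for HNRNPL, 7.14% for HNRNPK, 5.96% for HNRNPC and 4.95% for HNRNPH1. It was 0.367% for HNRNPD and 0% for HNRNPF and HNRNPM, so the 2 genes that changed most have nearly unique sequence. Exons of another gene overlapped 2.91% of the exonic bases of HNRNPD (the divergent transcript HNRNPD-DT, with 41 counts over the 4 libraries) and 0% of those of HNRNPF. The 74 pseudogenes named after HNRNPA1 held between 0.326% and 0.439% as many counts as the gene itself. HNRNPA1L2, a retrogene copy of HNRNPA1, had 101 and 97 counts in control libraries against 48 and 46 in the knockdown libraries (log2 fold change -0.95, adjusted p = 0.107), and HNRNPA1L3 had 52 and 80 against 42 and 47. Of the copies of other members, HNRNPCP2 had 98 and 113 counts against 142 and 124, HNRNPCP1 33 and 33 against 12 and 32, and HNRNPKP4 21 and 18 against 11 and 24. Reads of a near-identical copy may have been split or dropped, so the values of HNRNPA1 and its copies are less certain than those of HNRNPD and HNRNPF.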

How the data were processed

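Poly(A)-selected RNA from 2 control and 2 HMGB1 knockdown cultures of IMR90 was sequenced in pairs by the authors, who mapped reads to hg19 with STAR, counted unique reads on genes with featureCounts and deposited raw counts per gene without normalization. Tool versions, the strand setting and whether a pair counted once are not given in the sources used here.

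From the counts, CPM used the total on genes. Differential expression was tested with edgeR 4.0.16 and limma 3.58.1 in R 4.3.3 over all 4 libraries, with filterByExpr (15398 genes), TMM factors, the quasi-likelihood test without a term for the isolate, and Benjamini-Hochberg adjustment over all genes tested. The thresholds (adjusted p of 0.01, log2 fold change of 0.6 in either direction) are those of the study's methods. The steps were also run on simulated counts without a difference between isolates, so that run cannot show how the fits behave with the pairing of these libraries. The isolates pair the libraries: across 15398 genes, the replicate 1 minus replicate 2 difference correlated at 0.46 between groups. An isolate block, DESeq2 1.42.0 (a tool the authors also used), RUVs with 1 factor before DESeq2, other scalings, other filters and leaving out each library were alternatives, and DESeq2 with the block was chosen after seeing the data. An exact two-sided permutation test of 2 libraries against 2 cannot go below p = 0.333.

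Symbols were found for 55665 genes, and the 5904 genes on patch contigs hold 0 counts. The members and the lists of relatives, cofactors and AU-rich mRNAs were chosen with earlier results of these data known. Named are all members, HMGB1, the 5 relatives and the 3 cofactors and 3 AU-rich mRNAs with the smallest p, the 5 copies with the most counts and cell type markers, and other genes were named after their values were seen. A gene that this rule takes is not reported here. Overlaps, shared 50-base pieces and 3′ UTRs came from GENCODE 44 on GRCh37. Protein sequences were not analysed here.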

Additional observations from a re-analysis of the deposited data

Results flagged for a closer look

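The check covered 22 named genes: the members, HMGB1, and the relatives, cofactors and AU-rich mRNAs with the smallest p. Among these, 2 had isolates that moved in opposite directions, where 78.3% of all genes tested had the same sign in both isolates. HNRNPL had a log2 ratio of knockdown to control of 0.11 in I90-10 and -0.059 in I90-79. HNRNPM had 0.012 in I90-10 and -0.030 in I90-79. These differences between isolates were not tested, as each isolate has 1 library per group. Each value is smaller in size than the standard error of its gene without the isolate term (0.12 for HNRNPL, 0.15 for HNRNPM). With the replicate block these errors were 0.095 and 0.092, and the 0.11 of HNRNPL in I90-10 is larger. Neither error measures that of a ratio within 1 isolate. Copies and cell type markers were not in this check, and some of them also went opposite ways. HNRNPCP1 went from 1.10 to 0.40 CPM in I90-10 and from 0.93 to 1.03 CPM in I90-79. HNRNPKP4 went from 0.70 to 0.37 CPM in I90-10 and from 0.51 to 0.77 CPM in I90-79.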

How the results depend on the processing

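Of the members, 2 were called lower with DESeq2, with RUVs and DESeq2, without the filter on low counts, with the replicate block, with DESeq2 and the block, and at an adjusted p below 0.05. With total counts alone 1 was called (HNRNPD), at an adjusted p below 0.05 with the block 4, and with 1 library left out between 0 and 2. No member was called higher in any of these settings. By the rule of adjusted p below 0.01 and log2 fold change beyond 0.6, the replicate block changed the call of HNRNPD and HNRNPF and of no other member. The share of all genes called lower was 5.31% with DESeq2, 5.36% with RUVs, 4.65% without the filter, 7.84% with the block, 7.09% with DESeq2 and the block, 0.636% with total counts alone, and 0 to 2.1% with a library left out. Over the 48 tested genes of the other 3 lists, the number called lower was 5 with DESeq2, 7 with RUVs, 6 without the filter, 5 with the block, 5 with DESeq2 and the block, 5 at an adjusted p below 0.05, 15 at that level with the block, and 0 to 1 with a library left out. The number called higher was 2, 2, 6, 5, 4, 3, 17 and 0 to 2 in the same order. Among the 15398 genes tested, the number called higher was 725 with DESeq2, 760 with RUVs, 1028 with the block and 967 with DESeq2 and the block. Without the filter it was 1118 of 27391. At an adjusted p below 0.05, 3.94% of all genes were higher and 4.5% lower, and with the block 15.9% and 16.3%. The median log2 fold change of the members was -0.10 with RUVs and -0.059 with total counts alone, and ran from -0.11 without control replicate 1 to 0.066 without control replicate 2, changing sign with the library left out.

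Directions turned only in members close to 0. HNRNPH1 was at -0.043 with RUVs and -0.0094 without control replicate 1, and with a library left out it ran from -0.069 (knockdown replicate 2) to 0.27 (knockdown replicate 1). HNRNPK ran from -0.074 without control replicate 1 to 0.025 without control replicate 2, with 0.015 without knockdown replicate 1. HNRNPL was at -0.016 with RUVs and -0.019 with total counts alone, and ran from -0.056 without control replicate 1 to 0.11 without control replicate 2. HNRNPM ran from -0.14 without control replicate 1 to 0.13 without control replicate 2, with 0.094 without knockdown replicate 1. The causes were not tested. Without either knockdown library edgeR called 0 genes, so HMGB1 itself was not called. Fits of 2 libraries against 1 assume that the lone library varies like the other group. Depth does not limit the members, all at 1699 counts or more, while 2 libraries per group limit every p.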
